A study of Mus musculus with 9 samples.

Results

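Red cells carry hemoglobin, a protein built from alpha and beta globin chains that each hold a heme, and every heme is assembled by a chain of enzymes. The data described here are the liver RNA levels of 9 genes of these 2 groups: the adult globin genes Hba-a1, Hba-a2, Hbb-bs and Hbb-bt, and the heme synthesis genes Alas1, Alas2, Alad, Ppox and Fech. They are 9 of the 54007 rows of the expression table and were found by their gene symbols. The genes were chosen with earlier results of these data known. Liver RNA came from C57BL/6 mice at postnatal day 98 that had been divided at 6 weeks of age into 3 groups of 15 mice. The control group received no treatment that the labels name. The high-fat diet group (HFD) received a high-fat diet, and the third group (HFD+Pc) received the high-fat diet together with gavage of the gut bacterium Papillibacter cinnamivorans. Each group is represented by 3 libraries: control replicates 1, 2 and 4, HFD replicates 1, 2 and 3, and HFD+Pc replicates 1, 3 and 4. Nothing in the labels tells if 1 mouse or several went into a library, so p-values measure only the spread between these libraries, and no group received the bacterium on a control diet.

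Heme synthesis begins in mitochondria, where ALA synthase joins glycine and succinyl-CoA. The liver form of this enzyme, Alas1, is the regulated step in hepatocytes and is repressed by heme, whereas Alas2 is the form of developing red cells. Alad, Uros and Urod act in the cytosol, Cpox and Ppox return the pathway to mitochondria, and Fech inserts the iron. Hepatocytes use much of their heme for cytochromes P450. Globin messages in a liver sample are usually taken as a reading of the blood it holds, since red cells just released from the marrow still carry them.

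Values are FPKM (fragments per kilobase of gene model, scaled to the size of the library). Levels compared between genes depend on the model lengths, such as 13838 bases for Fech and 1871 for Alad. Reads could be recovered from the FPKM, and each library held 16560118 to 18927934 reads. Differences between groups are in log2(FPKM + 1) with a standard error (SE), tested with limma in 1 model over all 9 libraries, and a gene passed at a Benjamini-Hochberg adjusted p of at most 0.05 over the 10988 genes that reached 1 FPKM in 3 or more libraries. All 9 genes met that filter. In bulk RNA, fewer cells of a type and less RNA per cell cannot be told apart.

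The adult globin genes come in near-identical pairs, which limits what reads can say about each copy. The coding sequences of Hba-a1 and Hba-a2 matched at 428 of 429 bases, and those of Hbb-bs and Hbb-bt at 443 of 444, against 57.8% identity between Hba-a1 and Hbb-bs. How reads shared by 2 copies were assigned is not given in the sources used here, so the split within a pair is uncertain and the sum of a pair is given beside it. The promoters are shown because the copies were read together and because the 2 pairs differ there. The windows are the 250 bases before the transcription start in RefSeq (GRCm38.p6), printed in the direction of transcription, with the searched motifs in capitals on either strand: AGATAA for GATA factors, CACCC for Krüppel-like factors, CCAAT for the factor NF-Y, TATAAA for the TATA box and TGACTCA for the erythroid factor NF-E2. After the sequences had been seen, GATAAG was added as a second form of the GATA site and ATATAA as a second form of the TATA box.
Hba-a1, chr11:32283422-32283671, plus strand: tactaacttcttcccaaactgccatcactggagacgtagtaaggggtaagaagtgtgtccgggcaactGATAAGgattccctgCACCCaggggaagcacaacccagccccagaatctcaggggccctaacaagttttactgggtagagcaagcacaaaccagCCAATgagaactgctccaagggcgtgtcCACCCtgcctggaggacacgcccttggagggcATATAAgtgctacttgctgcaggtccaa
Hbb-bs, chr7:103827929-103828178, minus strand: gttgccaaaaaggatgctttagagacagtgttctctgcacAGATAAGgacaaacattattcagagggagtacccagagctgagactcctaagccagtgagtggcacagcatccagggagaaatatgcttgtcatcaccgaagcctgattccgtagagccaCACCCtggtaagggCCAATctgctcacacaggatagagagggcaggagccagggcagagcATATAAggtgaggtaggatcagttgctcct
Hbb-bt, chr7:103813924-103814173, minus strand: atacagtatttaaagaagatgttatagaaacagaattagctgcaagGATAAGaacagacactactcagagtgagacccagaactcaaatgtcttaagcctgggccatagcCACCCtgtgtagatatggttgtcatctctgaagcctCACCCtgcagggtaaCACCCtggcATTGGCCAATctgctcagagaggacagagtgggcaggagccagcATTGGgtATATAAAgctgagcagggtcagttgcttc
Alas2, chrX:150547167-150547416, plus strand: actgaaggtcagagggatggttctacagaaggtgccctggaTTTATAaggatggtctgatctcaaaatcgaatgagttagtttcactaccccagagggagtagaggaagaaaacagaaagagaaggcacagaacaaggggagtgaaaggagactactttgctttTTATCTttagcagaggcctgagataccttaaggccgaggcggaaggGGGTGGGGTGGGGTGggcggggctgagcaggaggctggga
Alas1, chr9:106247955-106248204, minus strand: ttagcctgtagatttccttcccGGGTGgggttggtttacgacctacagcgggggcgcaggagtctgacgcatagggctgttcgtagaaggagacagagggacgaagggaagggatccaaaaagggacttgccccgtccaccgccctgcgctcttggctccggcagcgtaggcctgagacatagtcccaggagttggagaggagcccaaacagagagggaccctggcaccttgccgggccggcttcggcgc
Over their 250-base windows, Hba-a1 and Hba-a2 shared an unbroken run of 247 bases, whereas the longest run shared by Hbb-bs and Hbb-bt was 14 bases. Each of the 4 globin windows held the GATA motif GATAAG, the Krüppel-like factor motif CACCC, the NF-Y motif CCAAT and the second TATA box form, ATATAA. The motif GATAAG, which shares the letters GATAA with AGATAA and resembles the site of GATA factors, lay 182 bases before the start of Hba-a1, 209 before Hbb-bs and 204 before Hbb-bt. Among 32851 promoter windows of the same length, 6.55% held GATAAG, 52.0% CACCC, 33.9% CCAAT and 9.10% ATATAA, which shares TATAA with TATAAA. The Alas2 window held AGATAA on the opposite strand 86 bases before the start, printed above as its complement, and 3 copies of CACCC on that strand, and 9.99% of all windows held AGATAA. Of the motifs searched, the Alas1 window shown held only CACCC, which overlaps none of the others. A motif match describes letters in a window and is not a measured binding site.

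Group means of the globins were highest in control and lowest in HFD+Pc. The beta chain gene Hbb-bs had the highest level of the 4, at 197, 127 and 178 FPKM in control replicates 1, 2 and 4, at 185, 109.5 and 98.3 in HFD replicates 1, 2 and 3, and at 81.9, 103 and 101 in HFD+Pc replicates 1, 3 and 4. The HFD+Pc libraries all lay below the control libraries, while HFD replicate 1 stood among the controls, HFD replicate 2 between the other groups and HFD replicate 3 among the HFD+Pc libraries. Its sister Hbb-bt was far lower, at 17.6, 12.9 and 20.1 FPKM in control, 14.8, 11.4 and 13.4 in HFD, and 7.48, 10.1 and 11.1 in HFD+Pc. For Hbb-bt too the HFD+Pc libraries lay below every control library, and narrowly below every HFD library.

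**Figure D1:**
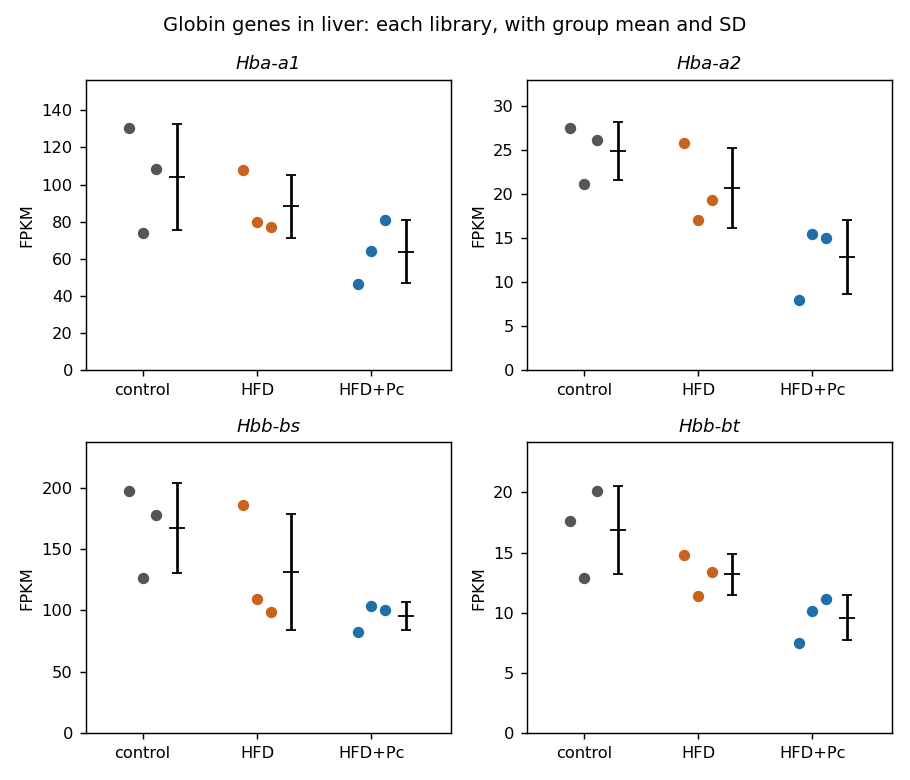
FPKM of Hba-a1, Hba-a2, Hbb-bs and Hbb-bt (vertical axis) in each library of the control, HFD and HFD+Pc groups, with the group mean and SD of 3 libraries as a black bar beside the points. The HFD+Pc mean lies below the control mean in each panel. For Hba-a1 the 2 groups overlap, since control replicate 2 (73.8 FPKM) lies below HFD+Pc replicate 4 (80.7 FPKM).

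Alpha chain messages had the same order of group means. Hba-a1 measured 130.4, 73.8 and 108 FPKM in the control libraries, 108, 80.1 and 77.0 in HFD, and 46.6, 64.4 and 80.7 in HFD+Pc. Here control and HFD+Pc overlapped, because control replicate 2 was low. Hba-a2 measured 27.5, 21.2 and 26.1 FPKM in control, 25.8, 17.0 and 19.4 in HFD, and 7.97, 15.5 and 15.0 in HFD+Pc, and its HFD+Pc libraries were below all libraries of the other 2 groups. Between the genes, Hbb-bs was the highest of the 4 in every library and Hba-a1 the second, and Hba-a2 exceeded Hbb-bt in 9 of 9 libraries.

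The summed level of the 4 globins was 373, 234 and 333 FPKM in control replicates 1, 2 and 4, 334, 218 and 208 in HFD replicates 1, 2 and 3, and 144, 193 and 207 in HFD+Pc replicates 1, 3 and 4. The HFD libraries spanned nearly the whole distance between the other groups, and the HFD+Pc libraries lay below every control library. The HFD+Pc mean, 182 ± 33.3 FPKM (SD, n = 3), was 57.9% of the control mean of 313 ± 71.2 and 71.7% of the HFD mean of 253 ± 70.0, and the HFD mean was 80.8% of control. Globin reads numbered 1946 to 5390 per library, or 0.0112% to 0.0285% of all reads. The sum had been set out as a description, with no test.

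Within the globins the proportions varied less than the total. The alpha sum divided by the beta sum was 0.679 to 0.734 in control, 0.667 to 0.863 in HFD and 0.610 to 0.857 in HFD+Pc, and these ranges overlapped. Hba-a2 supplied 14.6% to 22.3% of the alpha sum and Hbb-bt 7.39% to 12.0% of the beta sum over the 9 libraries. Across the 9 libraries the pairwise Pearson correlations of the 4 globins lay between 0.879 and 0.940, a description only, since copies share sequence and all values of a library share its depth.

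Against control, the HFD group showed no globin that passed. All 4 differences were negative, with a median of -0.29 beside -0.0009 over all tested genes. In this comparison 4.61% of tested genes passed as higher and 5.35% as lower. The share of higher genes among those that passed, 46.3%, became 59.9% with TPM scaling and 69.2% with FPKM from plain read totals. Hbb-bs differed by -0.38 ± 0.25 (SE) and Hbb-bt by -0.32 ± 0.18, with limma adjusted p of 0.344 and 0.279. Hba-a1 differed by -0.21 (adjusted p = 0.615, limma) and Hba-a2 by -0.27 (adjusted p = 0.505, limma), and no globin had an unadjusted p under 0.05.

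In HFD+Pc against control, 3 of the 4 globins fell, beside 11.1% of all tested genes that passed as higher and 11.9% as lower. Hba-a2 fell by 0.95 ± 0.24 on the log2 scale (limma adjusted p = 0.0221), from 24.9 ± 3.32 to 12.8 ± 4.20 FPKM (SD, n = 3). Hbb-bt fell by 0.75 ± 0.18 (limma adjusted p = 0.0179), from 16.9 ± 3.68 to 9.57 ± 1.87 FPKM. Hbb-bs fell by 0.79 ± 0.25 (limma adjusted p = 0.0475), from 167 ± 36.6 to 95.3 ± 11.6 FPKM.

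Hba-a1 differed by -0.69 ± 0.25 and did not pass (limma adjusted p = 0.0748). Its control and HFD+Pc means were 104 ± 28.5 and 63.9 ± 17.1 FPKM. With the copies of a pair added together before the fit, the alpha pair differed by -0.75 ± 0.24 (limma adjusted p = 0.0547) and the beta pair fell by 0.79 ± 0.24 (limma adjusted p = 0.0415). The median difference of the 4 genes was -0.77 beside 0.01 over all tested genes.

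The globin calls were lost when single libraries were left out, and that of Hbb-bs under several other settings. Without control replicate 1 or without control replicate 4, none of the 3 passed: limma adjusted p rose to 0.0742 and 0.0679 for Hba-a2, to 0.0571 and 0.0549 for Hbb-bt, and to 0.139 and 0.124 for Hbb-bs. The Hbb-bs call was also lost without HFD replicate 2 (0.0598) and without HFD+Pc replicate 1 (0.125), 3 (0.0916) or 4 (0.0904), while Hba-a1 passed without control replicate 2 (0.0385). The Hbb-bs call was lost as well with a filter of 0.1 FPKM (limma adjusted p = 0.0714), TPM scaling (0.0587), limma-voom (0.0855) and FPKM from plain read totals (0.0588). With no filter on low genes all 3 globin calls were lost, at 0.0699 for Hba-a2, 0.0604 for Hbb-bt and 0.130 for Hbb-bs.

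Between the 2 high-fat groups no globin passed, where 0.182% of all tested genes passed as higher and 0.446% as lower. Higher genes were 29.0% of those that passed, 16.8% with TPM scaling and 14.8% with plain read totals. Differences of HFD+Pc from HFD were -0.69 ± 0.24 for Hba-a2, -0.43 ± 0.18 for Hbb-bt, -0.48 ± 0.25 for Hba-a1 and -0.41 ± 0.25 for Hbb-bs. Their limma adjusted p were 0.222, 0.290, 0.396 and 0.466, and 2 of the 4 had an unadjusted p under 0.05. HFD against control and HFD+Pc against control share their control libraries, so the 2 sets of differences are not independent. That the globins fell with HFD+Pc and not with HFD alone is therefore not shown, since the test between those groups did not pass.

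Other markers of red cells were almost absent. Of 25 red cell and reticulocyte markers found in the table, 15 never reached 0.2 FPKM and 2 (Kel and Add2) were at 0 in every library. Slc4a1, the band 3 anion exchanger of the red cell membrane, measured 0.0219, 0.0120 and 0.0226 FPKM in control, 0.0334, 0.0834 and 0.0486 in HFD, and 0.0585, 0.0976 and 0.133 in HFD+Pc. Those values stand for 1 to 2, 3 to 7 and 5 to 11 reads per library, an order opposite to that of the globins and too close to the floor of 3 reads to test.

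The summed level of the 25 red cell markers was 20.4 to 23.8 FPKM in control, 22.6 to 24.0 in HFD and 26.0 to 27.3 in HFD+Pc. Most of it came from the 7 markers that were tested, the erythroid factor Klf1 and Gypc, Car1, Car2, Bpgm, Tfrc and Xk. The latter are not restricted to red cells. Klf1 measured 2.37, 2.99 and 2.52 FPKM in control, 2.27, 2.16 and 1.63 in HFD, and 2.91, 1.83 and 2.74 in HFD+Pc. Xk, a membrane protein of the Kell complex, was higher in HFD (0.40 ± 0.10, limma adjusted p = 0.0337) and in HFD+Pc (0.50 ± 0.10, limma adjusted p = 0.00711) than in control. Tfrc, the transferrin receptor, was higher in HFD+Pc than in control (0.61 ± 0.13, limma adjusted p = 0.0123) at 4.51 ± 0.75 against 2.60 ± 0.35 FPKM. The Xk call in HFD was lost without control replicate 1 or 2, HFD replicate 2 or 3 or HFD+Pc replicate 3 (up to 0.0991). Of the 7 tested markers, 1 passed as higher in HFD and 2 in HFD+Pc against control, beside 4.61% and 11.1% of all tested genes. None passed as lower, beside 5.35% and 11.9%, and 7 genes are too few to read anything from that. The part of red cell number in the globin differences was not tested. Of 9 further globin genes listed, 5, among them the embryonic Hbb-y and Hba-x, were at 0 in every library. Only cytoglobin, Cygb, which marks stellate cells, was tested, and it was lower than control in HFD (-0.46 ± 0.09, limma adjusted p = 0.0168, lost without control replicate 2 at 0.0539) and in HFD+Pc (-0.55 ± 0.09, limma adjusted p = 0.00403).

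In HFD+Pc against control, 1 of the 5 heme synthesis enzymes first named passed as lower and 1 as higher. Over all tested genes 11.9% passed as lower and 11.1% as higher, and these few enzymes were not tested against those shares. The entry enzyme of hepatocytes, Alas1, fell, and Alad, the enzyme of the next step, rose. None of the 5 passed in HFD against control or between HFD+Pc and HFD. Alas1 measured 30.6, 34.4 and 33.2 FPKM in control replicates 1, 2 and 4, 20.5, 21.7 and 17.2 in HFD replicates 1, 2 and 3, and 23.0, 10.9 and 20.2 in HFD+Pc replicates 1, 3 and 4. Every control library lay above every library of both high-fat groups, and HFD+Pc replicate 3 was the lowest of all.

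Alas1 fell by 0.89 ± 0.23 in HFD+Pc against control (limma adjusted p = 0.0239), from 32.7 ± 1.92 to 18.0 ± 6.35 FPKM (SD, n = 3). In HFD against control the difference was -0.70 ± 0.23 and did not pass (limma adjusted p = 0.0834), at a mean of 19.8 ± 2.36 FPKM. Leaving out HFD+Pc replicate 3, the library with the lowest Alas1, gave a limma adjusted p of 0.0139 for HFD against control, and a fit of only those 2 groups gave 0.0182. The HFD+Pc call was lost without control replicate 1, 2 or 4 (limma adjusted p of 0.0567, 0.0758 and 0.0661) and with no filter on low genes (0.0743). HFD+Pc and HFD differed by -0.18 ± 0.23 (limma adjusted p = 0.750), and by 0.12 without HFD+Pc replicate 3.

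**Figure D2:**
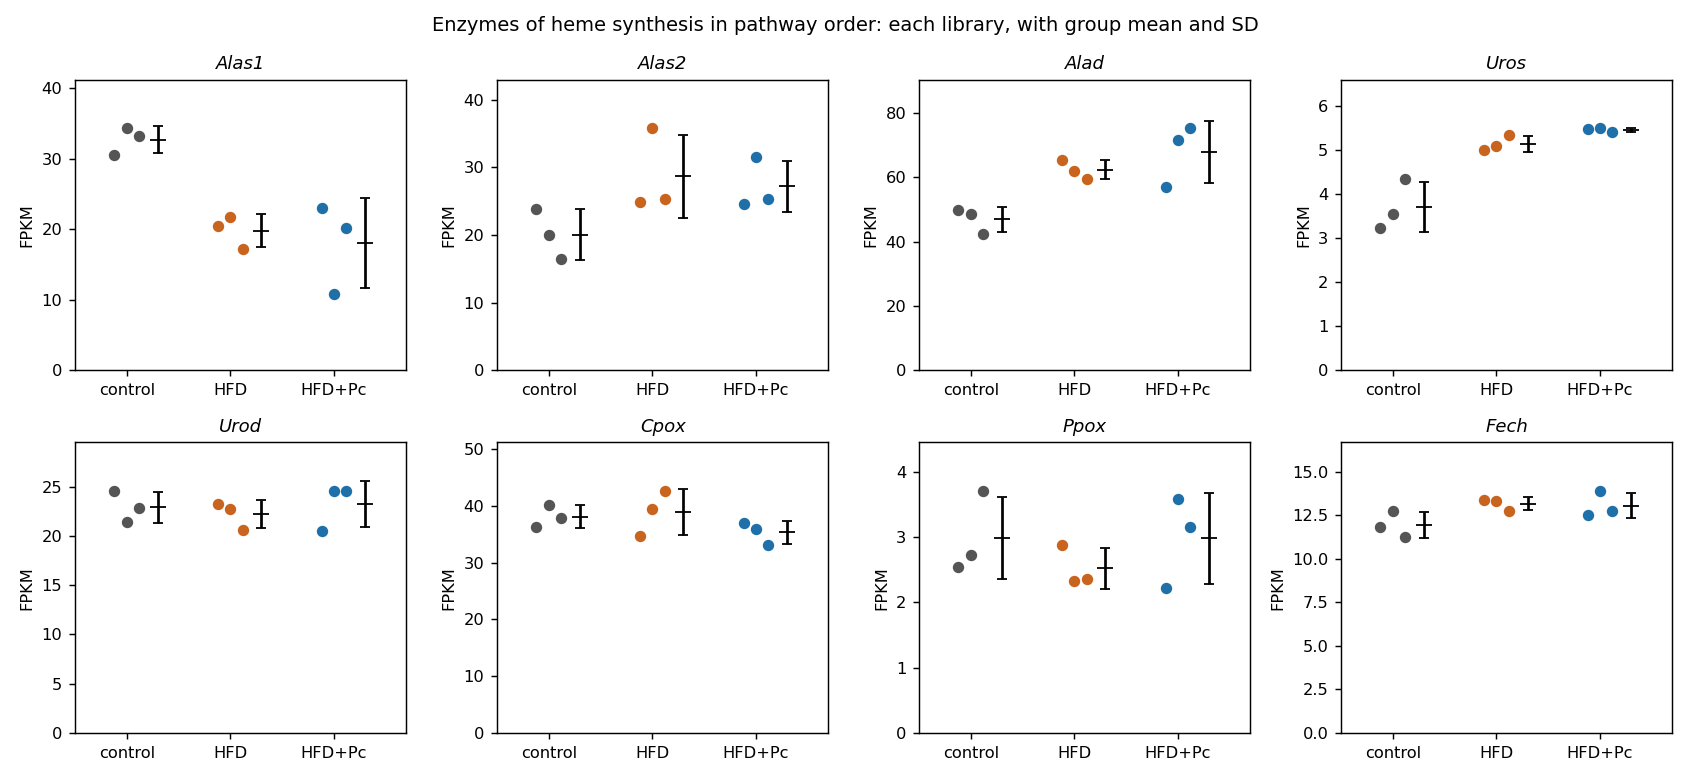
FPKM of 8 enzymes of heme synthesis in pathway order (vertical axis, starting at 0) in each library of the 3 groups, with the group mean and SD of 3 libraries as a black bar. Alas1 is highest in the 3 control libraries (30.6 to 34.4 FPKM), whereas Alas2, Alad and Uros are lowest there.

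In FPKM, Alas2, the erythroid form, was present at a level near that of Alas1 in these livers. It measured 23.9, 19.9 and 16.4 FPKM in control, 24.9, 35.8 and 25.3 in HFD, and 24.7, 31.6 and 25.3 in HFD+Pc. All 6 libraries of the high-fat groups lay above the 3 control libraries, by a narrow margin over control replicate 1. The differences from control were 0.49 ± 0.17 for HFD and 0.43 ± 0.17 for HFD+Pc, and neither passed (limma adjusted p = 0.105 and 0.102), although that in HFD did with limma-voom (0.59, adjusted p = 0.0354). HFD+Pc differed from HFD by -0.06 ± 0.17 (limma adjusted p = 0.896).

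On the per-length scale, Alas1 divided by Alas2 was 1.28, 1.72 and 2.02 in control replicates 1, 2 and 4. In HFD replicates 1, 2 and 3 the ratio was 0.824, 0.606 and 0.677, and in HFD+Pc replicates 1, 3 and 4 it was 0.934, 0.345 and 0.798. On this scale Alas1 was thus the higher of the 2 forms in each control library and the lower in each high-fat library. That order depends on the gene models, of 6174 bases for Alas1 and 2403 for Alas2. In reads Alas1 was the lower only in HFD+Pc replicate 3 (1126 against 1272), and HFD replicate 1 held 2321 against 1096. Alas2 amounted to 4.93% to 8.50% of the globin sum in control, 7.44% to 16.4% in HFD and 12.2% to 17.1% in HFD+Pc.

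Reads of Alas2 may include some of a neighbour, because 311 of its 2403 exon bases in GENCODE M21 lie opposite exons of Apex2 and the strand setting of the counting is not given in the sources used here. Apex2 itself measured 0.669 to 1.10 FPKM over the libraries. The 465 exon bases of Alas1, of 6174, that lie opposite the antisense gene 4930500F10Rik carried no counted reads of that gene, which was at 0 in every library.

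Hbb-bs fell into separate ranges, with 3 libraries at 178 FPKM or above and 6 at 127 or below, so a relation to other genes was computed within the 6 lower libraries. There Alas2 gave a Pearson r of -0.133 (exact permutation p = 0.8736) and a Spearman rho of 0.086 (exact permutation p = 0.9194), two-sided. Slc4a1 gave an r of -0.307, Alas1 of 0.340 and Hp, the haptoglobin gene, of 0.140. The lowest adjusted permutation p of the 4 relations was 0.8736. Slc4a1 held only 1 to 11 reads in these libraries, too near the floor of 3 reads for its r to be read. For Alas2, r became 0.951 when control replicate 2 and HFD+Pc replicate 1 were left out, so that its value rests on those 2 libraries. The 4 libraries left spanned only 98.3 to 109.5 FPKM of Hbb-bs, too few and too narrow to show a relation.

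**Figure D3:**
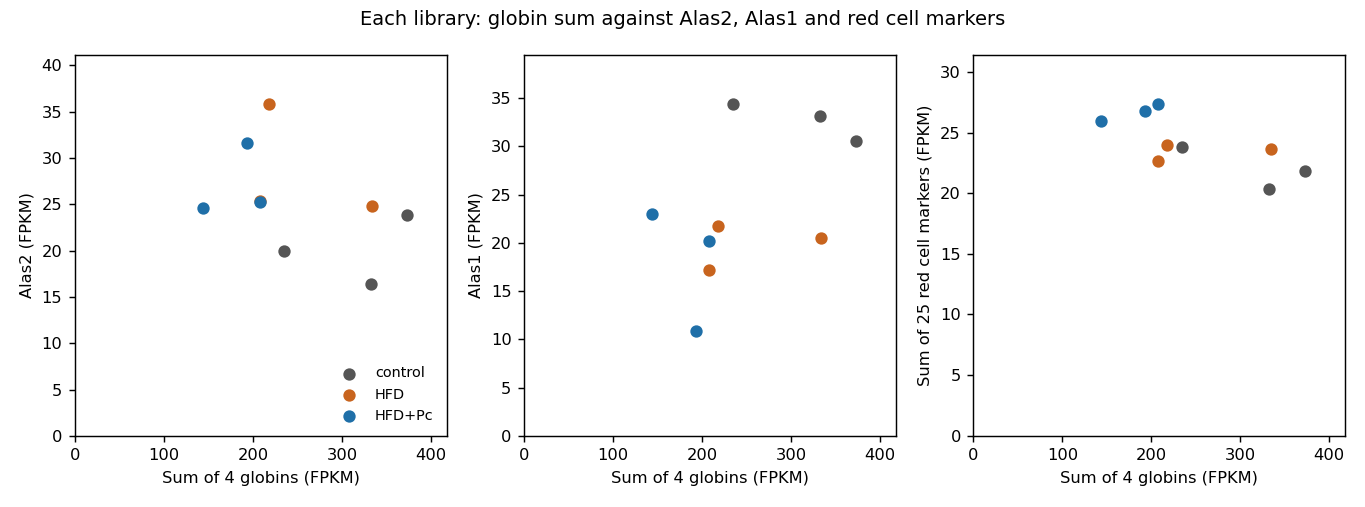
Each point is 1 library, coloured by group, with the summed FPKM of the 4 globins on the horizontal axis and the FPKM of Alas2, of Alas1 and of the 25 red cell markers summed on the vertical axes, all starting at 0. Control libraries lie at 30.6 to 34.4 FPKM of Alas1 whatever their globin sum (234 to 373 FPKM), and the HFD+Pc libraries have the highest red cell marker sums (26.0 to 27.3 FPKM) with the lowest globin sums (144 to 207 FPKM).

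Alad, which joins 2 molecules of aminolevulinic acid into porphobilinogen, had the highest FPKM of the 5 enzymes and rose. It measured 49.9, 48.6 and 42.5 FPKM in control, 65.5, 62.1 and 59.5 in HFD, and 57.1, 71.6 and 75.3 in HFD+Pc, and no control library reached the lowest high-fat library. In HFD+Pc against control the rise was 0.52 ± 0.12 (limma adjusted p = 0.013), from 47.0 ± 3.96 to 68.0 ± 9.65 FPKM. In HFD against control the difference of 0.40 ± 0.12 did not pass (limma adjusted p = 0.0558), although it did with limma-voom on the recovered reads (0.0114), TPM scaling (0.04), plain read totals (0.0303) and a fit of only those 2 groups (0.0493). Without HFD+Pc replicate 3 the first of these calls was lost (0.051), and without HFD+Pc replicate 1 the second passed (0.0278). HFD+Pc and HFD differed by 0.11 ± 0.12 (limma adjusted p = 0.689).

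The last enzymes of the pathway showed no difference that passed. Fech, ferrochelatase, measured 11.8, 12.7 and 11.3 FPKM in control, 13.4, 13.3 and 12.8 in HFD, and 12.5, 13.9 and 12.7 in HFD+Pc. Its differences from control were 0.13 ± 0.07 for HFD and 0.12 ± 0.07 for HFD+Pc (limma adjusted p = 0.276 and 0.264). Ppox, protoporphyrinogen oxidase, had the lowest FPKM of the 9 genes. It measured 2.55, 2.72 and 3.71 FPKM in control, 2.88, 2.32 and 2.36 in HFD, and 2.22, 3.58 and 3.16 in HFD+Pc. Its groups overlapped, and its differences from control were -0.17 ± 0.15 and -0.01 ± 0.15 (limma adjusted p = 0.487 and 0.980). Exons of Ppox overlap those of B4galt3 on the other strand by 791 of 4515 bases, and B4galt3 measured 0.512 to 1.19 FPKM.

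Uros, Urod and Cpox, which are not among the 9 genes, act between Alad and Ppox. Uros, which closes the ring, rose in HFD (0.39 ± 0.09, limma adjusted p = 0.0295) and in HFD+Pc (0.46 ± 0.09, limma adjusted p = 0.00787), from 3.70 ± 0.57 to 5.13 ± 0.17 and 5.45 ± 0.05 FPKM. Urod and Cpox did not pass in any comparison, with differences from control of -0.04 and 0.03 in HFD and of 0.02 and -0.10 in HFD+Pc. The Uros call in HFD was lost without control replicate 1 or 2 or any HFD library (limma adjusted p up to 0.0915).

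Over these 8 synthesis enzymes in HFD+Pc against control, 2 (Alad and Uros) rose, 1 (Alas1) fell and 5 did not pass, beside 11.1% higher and 11.9% lower over all tested genes. In HFD against control 1 (Uros) rose and 7 did not pass, beside 4.61% and 5.35%, and none passed between HFD+Pc and HFD, where 0 of the 8 also had an unadjusted p under 0.05. For the 5 enzymes among the 9 genes the median difference was 0.13 in HFD and 0.12 in HFD+Pc against control.

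**Figure D4:**
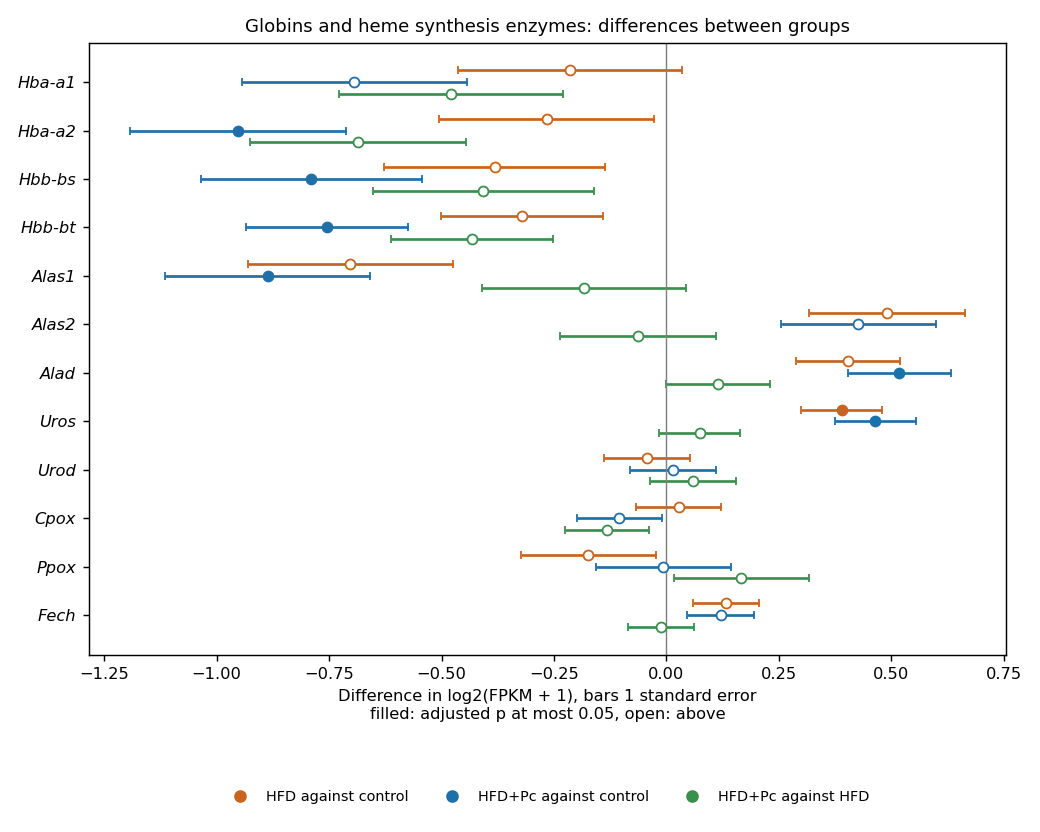
Differences in log2(FPKM + 1) with 1 SE (horizontal axis) for the 4 globins and 8 heme synthesis enzymes (rows) in the 3 comparisons, with filled points for a limma adjusted p of at most 0.05. Filled points of HFD+Pc against control are Hba-a2, Hbb-bs, Hbb-bt and Alas1 to the left of 0 and Alad and Uros to the right, and the 1 filled point of HFD against control is Uros.

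Transport genes of the mitochondrial membranes rose and fell in both high-fat groups against control. Slc25a28 (mitoferrin 2) and Slc25a37 (mitoferrin 1) both import iron into mitochondria and went in opposite directions. Slc25a28 measured 6.36, 6.25 and 5.47 FPKM in control, 4.49, 3.99 and 3.49 in HFD, and 2.43, 2.78 and 3.13 in HFD+Pc, so that the 3 groups did not overlap. Slc25a37 measured 4.40, 4.37 and 4.44 FPKM in control, 6.33, 6.31 and 5.94 in HFD, and 6.44, 6.47 and 7.28 in HFD+Pc.

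Slc25a28 fell by 0.50 ± 0.10 in HFD (limma adjusted p = 0.022) and by 0.90 ± 0.10 in HFD+Pc (limma adjusted p = 0.00148) against control. Slc25a37 rose by 0.41 ± 0.07 (limma adjusted p = 0.0131) and 0.51 ± 0.07 (limma adjusted p = 0.00254). Tspo, an outer membrane protein that binds porphyrins, fell by 0.40 ± 0.07 (limma adjusted p = 0.0154) in HFD and fell by 0.43 ± 0.07 in HFD+Pc (limma adjusted p = 0.00533), with all control libraries at 64.7 to 66.0 FPKM and all others at 46.5 to 50.5. In HFD the Slc25a28 call was lost without control replicate 1 or 2 or HFD replicate 2 or 3 (up to 0.0713) and that of Tspo without control replicate 2 (0.0524).

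Both heme oxygenase genes, which open the heme ring, fell in HFD+Pc against control. Hmox1, heme oxygenase 1, measured 17.9, 17.1 and 21.7 FPKM in control, 18.2, 16.0 and 14.8 in HFD, and 11.0, 13.2 and 9.43 in HFD+Pc. The HFD+Pc libraries lay below all others, and Hmox1 fell by 0.71 ± 0.13 against control (limma adjusted p = 0.00683), while HFD+Pc against HFD gave -0.51 ± 0.13 and did not pass (limma adjusted p = 0.114). Hmox2, the constitutive form, fell against control in HFD+Pc by 0.61 ± 0.15 (limma adjusted p = 0.019, up to 0.0586 without control replicate 1 or 4 or HFD+Pc replicate 1 or 3). Ugt1a1, which conjugates bilirubin, rose by 0.82 ± 0.16 in HFD+Pc (limma adjusted p = 0.00745), from 40.6 ± 9.08 to 71.5 ± 6.28 FPKM. The biliverdin reductases Blvra and Blvrb did not pass, at 0.11 ± 0.09 and -0.26 ± 0.13 in HFD+Pc and 0.12 ± 0.09 and -0.12 ± 0.13 in HFD against control.

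The plasma scavengers of hemoglobin and heme did not pass in any comparison. Hp, which binds free hemoglobin, ranged from 1309 to 2033 FPKM among control libraries, from 1263 to 2153 in HFD and from 1351 to 2026 in HFD+Pc, and its differences from control were -0.07 ± 0.25 in HFD and 0.08 ± 0.25 in HFD+Pc. Hpx, hemopexin, which binds free heme, differed by -0.41 ± 0.35 and -0.65 ± 0.35 and did not pass (limma adjusted p = 0.483 and 0.205). Of the 22 tested genes of heme breakdown, scavenging and transport, 2 rose (Slc25a37 and Abcg2) and 2 fell (Slc25a28 and Tspo) in HFD against control, beside 4.61% and 5.35% of all tested genes, with a median of -0.07 beside -0.0009. In HFD+Pc against control 5 rose (Ugt1a1, Slc25a37, Slc46a1, Abcb10 and Abcg2) and 4 fell (Slc25a28, Tspo, Hmox1 and Hmox2), beside 11.1% and 11.9%, with a median of 0.09 beside 0.01, and none passed between HFD+Pc and HFD. Abcg2, a porphyrin exporter, rose by 0.65 ± 0.16 in HFD (limma adjusted p = 0.0376, and above 0.05 in 6 of 9 fits that left out 1 library) and by 0.51 ± 0.16 in HFD+Pc (limma adjusted p = 0.0469, above 0.05 in 7 of 9). The heme and folate importer Slc46a1 rose by 0.37 ± 0.08 in HFD+Pc against control (limma adjusted p = 0.0131, lost without HFD+Pc replicate 3 at 0.052). Abcb10, a transporter of the inner mitochondrial membrane, rose there by 0.47 ± 0.14 (limma adjusted p = 0.0381, lost in 5 of these 9 fits, up to 0.123).

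**Figure D5:**
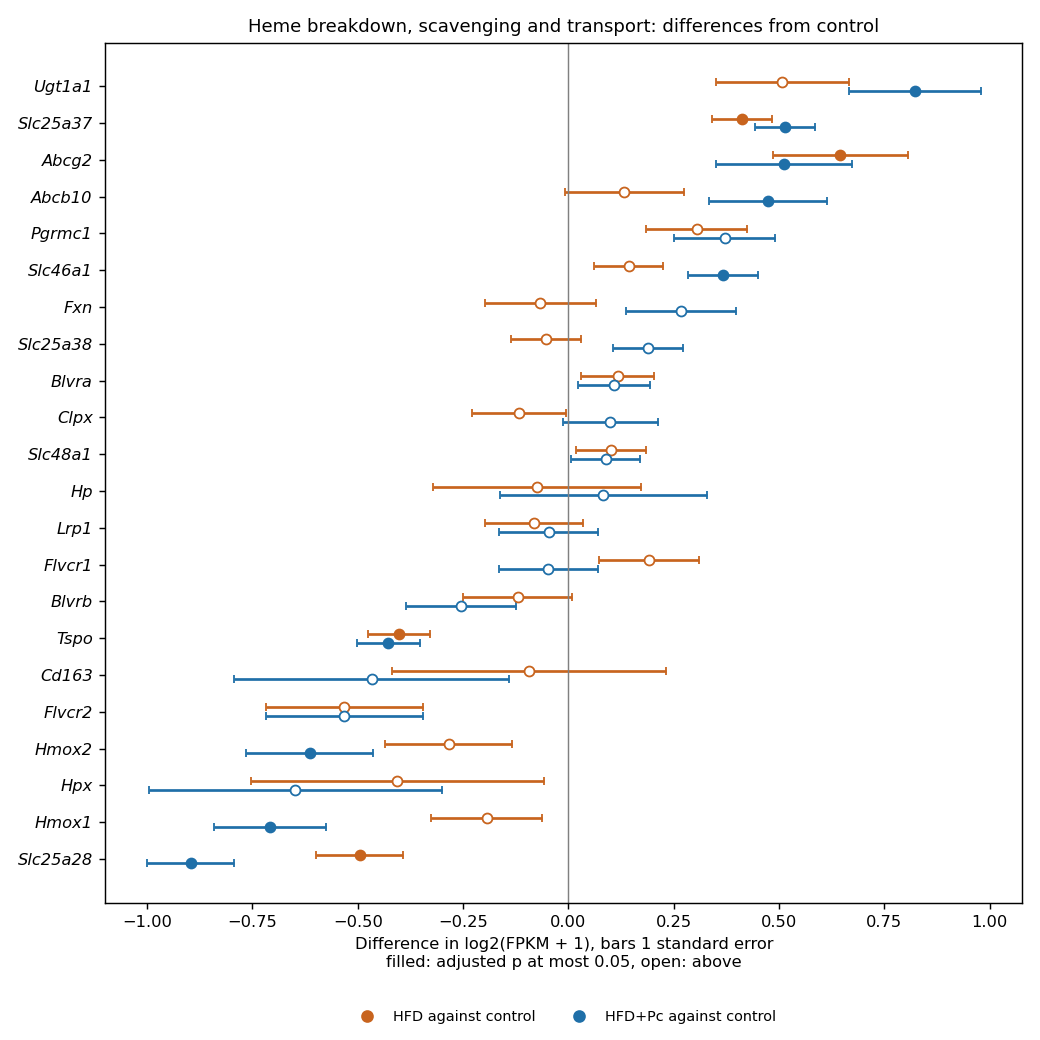
Differences from control in log2(FPKM + 1) with 1 SE (horizontal axis) for the 22 tested genes of heme breakdown, scavenging and transport (rows), for HFD and for HFD+Pc, with filled points for a limma adjusted p of at most 0.05. Slc25a28 has the lowest value in HFD+Pc (-0.90, against -0.50 in HFD) and Slc25a37 is filled to the right of 0 in both (0.41 and 0.51).

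Among 14 tested regulators of Alas1 and heme genes, 3 rose and 1 fell in HFD, and 4 rose and 4 fell in HFD+Pc, against control. Over all tested genes the shares were 4.61% higher and 5.35% lower in HFD and 11.1% and 11.9% in HFD+Pc. Nr1d1 and Nr1d2, the heme-binding repressors of the clock, rose by 0.93 ± 0.19 and 0.69 ± 0.17 in HFD (limma adjusted p = 0.0231 and 0.0356) and by 0.79 ± 0.19 and 0.77 ± 0.17 in HFD+Pc (limma adjusted p = 0.0201 and 0.0124). Por, the reductase that passes electrons to P450 enzymes and heme oxygenase, measured 129, 128 and 123 FPKM in control, 58.5, 43.0 and 79.9 in HFD, and 58.6, 47.8 and 51.5 in HFD+Pc. It fell by 1.10 ± 0.19 in HFD (limma adjusted p = 0.013) and fell by 1.26 ± 0.19 in HFD+Pc (limma adjusted p = 0.00355), also in all 9 fits that left out 1 library. Ppargc1a, a coactivator known to induce Alas1, differed by -0.31 ± 0.14 and -0.26 ± 0.14 with limma adjusted p = 0.199 and 0.211, neither past the threshold.

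The remaining calls of this list were for the redox factor Nfe2l2, higher in HFD (0.52) and HFD+Pc (0.49), and, in HFD+Pc against control, for Ireb2 (0.40), which binds iron-responsive elements, Cebpb (-1.15), Hnf4a (-0.48) and Nr1h4 (-0.47), transcription factors of hepatocytes. Their limma adjusted p were 0.0374 and 0.0248 for Nfe2l2, 0.0174 for Ireb2, 0.00568 for Cebpb, 0.0135 for Hnf4a and 0.0224 for Nr1h4. Cebpb and Hnf4a passed in 9 of 9 fits that left out 1 library, Ireb2 in 7 and Nr1h4 in 5. For Nfe2l2 this number was 2 in HFD and 5 in HFD+Pc. Nr1d1 and Nr1d2 passed in 6 and 2 of these fits in HFD, and in 8 and 9 in HFD+Pc.

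The heme proteins of liver, mostly cytochromes P450, had 2 genes that rose and 2 that fell among 25 in HFD, and 5 that rose and 3 that fell in HFD+Pc, against control. Over all tested genes 4.61% were higher and 5.35% lower in HFD, and 11.1% and 11.9% in HFD+Pc. Neither the rises nor the falls of this short list were tested against these shares. Cyp2b10 had the largest rise of the list, by 2.10 ± 0.37 (limma adjusted p = 0.0139, lost without control replicate 1 or 2, up to 0.0569) and 2.32 ± 0.37 (limma adjusted p = 0.00417), from 2.36 ± 1.33 FPKM in control to 14.0 ± 7.82 and 14.9 ± 0.75. Cyp2c29 rose by 0.51 and 0.86 (limma adjusted p = 0.0476 and 0.00402), and in HFD+Pc Cyp1a2 (0.72), Cyb5b (0.70) and Cyp2e1 (0.46) also rose. Cytochrome c, Cycs, fell by 0.36 ± 0.08 (limma adjusted p = 0.0305) in HFD and fell by 0.60 ± 0.08 in HFD+Pc (limma adjusted p = 0.00262), and the bile acid enzyme Cyp8b1 fell by 0.41 and 0.34 (limma adjusted p = 0.0438 and 0.0459).

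Fabp1, a fatty acid carrier that can also bind heme, was the single gene of the companion lists that passed between HFD+Pc and HFD. It was lower by 1.08 ± 0.18 on the log2 scale (limma adjusted p = 0.0452), at 865 ± 165 against 1808 ± 89.8 FPKM, and it fell by 1.46 ± 0.18 against control (limma adjusted p = 0.00156). The median difference of the heme proteins was 0.19 in HFD and 0.17 in HFD+Pc against control, beside -0.0009 and 0.01 over all genes. Passing fits among the 9 that left out 1 library numbered 1 for Cyp2c29 in HFD, 1 for Cyp8b1 in each comparison, 2 for Cyp2e1, 5 for Cyb5b, 3 for Cycs in HFD and 2 for Fabp1 between HFD+Pc and HFD. Cyp1a2, and in HFD+Pc against control Cyp2b10, Cyp2c29, Cycs and Fabp1, passed in all 9.

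By a rule based on likeness, the genes whose levels followed the globin sum most closely over the 9 libraries, out of 10783, were Ccdc28b (Pearson r = 0.955), Tnfrsf11b (0.953), Grk2 (0.945), Wdr53 (0.942) and Cst3 (0.942). Those most like Alas1 were Bcl2l2 (0.969), Pced1b (0.962), Gm13889 (0.954), Ifi27 (0.950) and Cdo1 (0.946). These are the highest of many correlations over 9 libraries that share group and depth, and are given as descriptions with no p.

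Some markers of other cells passed as well, and their part in the results above was not tested. In HFD+Pc against control, 2 of 12 tested Kupffer, 2 of 10 endothelial, 3 of 10 stellate and 3 of 14 hepatocyte markers were lower. Higher were 1 stellate and 1 hepatocyte marker, beside 11.1% higher and 11.9% lower over all tested genes. In HFD, 2 endothelial, 1 stellate and 1 hepatocyte marker were lower, beside 5.35%. There 2 of 9 tested B, T and NK cell markers were higher, beside 4.61%. Hepatocyte markers (14 found) summed to 57331 to 59552 FPKM in control, 39561 to 43372 in HFD and 45173 to 59561 in HFD+Pc. Kupffer cell markers (13) summed to 418 to 561, 366 to 510 and 288 to 447 FPKM, and C1qa and C1qc fell in HFD+Pc by 1.18 and 0.54 against control. Sinusoidal endothelial markers (10) summed to 127 to 142, 94.3 to 117 and 104 to 109 FPKM, with Kdr and Stab2 lower in HFD (-0.63 and -0.51) and Cdh5 and Oit3 lower in HFD+Pc (-0.55 and -0.32). Stellate cell markers (10) summed to 131 to 143, 103 to 119 and 102 to 123 FPKM. Ecm1 was lower in HFD (-0.58) and in HFD+Pc (-0.50), and in HFD+Pc Colec11 (-0.61) and Hand2 (-0.49) were lower and Lrat (0.77) higher. B, T and NK cell markers (15) summed to 29.99 to 44.4, 60.0 to 93.8 and 35.8 to 48.9 FPKM, with Igkc (1.41) and Jchain (0.91) higher in HFD. Among hepatocyte markers Apoa1 was lower in HFD (-0.77) and HFD+Pc (-0.67), Hpd (-0.48) and Ass1 (-0.66) were lower and Serpina1a (0.54) higher in HFD+Pc. Of 12 listed platelet markers only 1, Clec1b, was tested, and it was lower in HFD+Pc (-0.57) than in control. Ppbp lay at 0.110 to 0.765 FPKM, and a change of platelets cannot be read from 1 gene. The neutrophil genes S100a8 and S100a9 did not pass, with differences from control of 1.01 and 0.72 in HFD and 0.51 and -0.04 in HFD+Pc, and no bile duct marker passed. These marker genes passed limma at an adjusted p of at most 0.05. Igkc, Jchain, C1qa, Cdh5, Clec1b, Colec11, Lrat, Hpd and Serpina1a did so in all 9 fits that left out 1 library. Kdr and Stab2 were lost without control replicate 2, Hand2 without control replicate 4 or HFD+Pc replicate 3, and C1qc, Oit3, Ecm1, Apoa1 and Ass1 passed in 1 to 6 of those fits.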

How the data were processed

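Liver RNA was extracted with Trizol and sequenced with Illumina libraries, per the labels' protocols, and the submitters' processing notes name HISAT2 2.0.5 and the mouse build GRCm39. The counting tool, its strand setting, the annotation and the choice of library size are not given in the sources used here. The authors deposited FPKM for 54007 genes or gene models in 9 libraries. A table of gene names gave symbols to 52093 of 53700 Ensembl identifiers. Within a gene the deposited FPKM were whole multiples of 1 read (tolerance 0.02) for 99.3% of 26278 genes above 0, which gave totals of 16560118 to 18927934 reads per library, and the authors' FPKM divisor was 97.4% to 108% of these totals. Gene lengths, overlaps and coding sequences came from GENCODE M21, and promoters from RefSeq, both on an earlier build than the alignment.

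Differences were tested with limma 3.58.1 in R 4.3.3 (lmFit and eBayes, with the trend and robust options). Values entered as log2(FPKM + 1), a scale that understates changes of low genes. A gene was tested when 3 or more libraries reached 1 FPKM. The 9 libraries shared 1 model of group means without covariates, and the Benjamini-Hochberg threshold was 0.05. The script was tested on simulated data. Tables used Python 3.11.15, pandas 2.3.3 and scipy 1.17.1. The members and the gene lists (208 genes listed, 206 found) were chosen with earlier results of these data known. Named genes were the 9 members, a fixed panel of 18 genes of which 15 are reported here, up to 2 passing genes per list, direction and comparison with the lowest adjusted p, and the 5 genes most correlated with the globin sum and with Alas1. Hmox2, Slc46a1, Abcb10, Nfe2l2, Hnf4a, Nr1h4, Cyp1a2, Cyp2e1 and Cyb5b, and Abcg2, Cyp8b1, Ecm1 and Apoa1 in HFD+Pc, were added after their values were seen, to complete counts of 5 or fewer. A few listed genes are not reported here and stand in no list count, sum or figure. Apex2, 4930500F10Rik and B4galt3 are named as overlapping neighbours. A relation of Alas2 to Hbb-bs had been planned over all 9 libraries and is given within the 6 lower ones, since Hbb-bs fell into separate ranges. Replicate numbers were not used to pair libraries. Alternatives were other pseudocounts, filters and scalings, fits of 2 groups, a replicate block, summed copies, limma-voom on recovered reads and each library left out. FPKM from plain read totals was added after the data were seen. Counting error is the only error that read counts cover.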

Additional observations from a re-analysis of the deposited data

How the results depend on the processing

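With 3 libraries per group, calls near the threshold moved with most choices. Members that passed in HFD against control numbered 0, but 1 (Alad) with TPM scaling, 2 (Alas1 and Alad) with only those groups in the fit, 2 (Alas2 and Alad) with limma-voom, 1 (Alad) with FPKM from plain read totals and 0 to 1 with a library left out. In HFD+Pc against control 5 passed, but 4 (without Hbb-bs) with the 0.1 FPKM filter, TPM scaling, limma-voom or plain totals, 1 (Alad) with no filter, 2 (Hba-a2 and Hbb-bt) with the replicate block and 1 to 5 with a library left out. Between HFD+Pc and HFD 0 passed under every alternative run. Over all genes, HFD against control gave 1095, but 725 with a filter of 0.1 FPKM, 209 with no filter, 680 with 2 groups, 232 with the replicate block and 332 to 1126 with a library left out. HFD+Pc against HFD gave 69, but 27 with the 0.1 filter, 3 with no filter, 113 with TPM scaling, 22 with 2 groups, 3 with the replicate block, 185 with limma-voom, 30 with eBayes without trend and robust estimation, 115 with plain totals and 5 to 123 with a library left out. HFD+Pc against control gave 2538, but 1383 with no filter, 1058 with the replicate block and 1396 to 2644 with a library left out. Companion genes that passed numbered 21, 1 and 42 in these comparisons. In HFD against control they were 3 with no filter, 13 with 2 groups, 7 with the replicate block and 4 to 19 with a library left out. Between HFD+Pc and HFD they were 0 with either filter, 2 groups or the replicate block, 2 with TPM scaling, 4 with limma-voom, 3 with plain totals and 0 to 1 with a library left out. In HFD+Pc against control they were 26 with no filter, 27 with the replicate block and 26 to 43 with a library left out. Reversed signs occurred in differences that passed in none of these fits. With the replicate block Alas2 and Fech in HFD+Pc against HFD gave 0.0744 and 0.0306 and Cpox in HFD gave -0.0239. In HFD against control Hp and Urod gave 0.0056 and 0.0332 with limma-voom, and 0.0042 and 0.032 with plain totals, and Urod in HFD+Pc against control gave -0.0026 with TPM scaling. With a library left out, HFD against control ranged from -0.04 to 0.11 for Cpox, -0.31 to 0.0868 for Hp and -0.0901 to 0.008 for Urod. HFD+Pc against HFD ranged from -0.38 to 0.12 for Alas1, -0.17 to 0.10 for Alas2 and -0.0549 to 0.0146 for Fech. HFD+Pc against control ranged from -0.12 to 0.14 for Ppox, -0.0729 to 0.26 for Hp, -0.33 to 0.28 for S100a9 and -0.0314 to 0.0981 for Urod. Except where fewer or more genes or libraries entered the fit, the cause was not tested. Same-numbered libraries of different groups had correlations of -0.119 to 0.053 in their deviations from the group means, so no strong pairing was seen. What the numbers stand for was not tested.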
